A study of Caenorhabditis elegans with 4 samples.

Results

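The regions described here are stretches of chromosome IV of Caenorhabditis elegans, outside its piRNA domains, at which RNA polymerase II (Pol II) was enriched in hermaphrodite larvae of the L3 stage. They were found by ChIP-seq, which sequences the DNA that an antibody pulls down with a crosslinked protein. Members were chosen by position alone. A region of the combined list belonged to the left end when its midpoint lay below 4.5 Mb, to the middle span between 7 and 13.5 Mb, and to the right end above 17.2 Mb, in the WormBase WS220 build. This gave 1547 regions of 2111 on chromosome IV and of 9051 in the whole list. The left end held 573 regions, the middle span 942 and the right end 32. The same spans held 1287 of 7359 regions in the list of replicate 1 and 1142 of 7115 in the list of replicate 2.

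The study comprised 2 replicates of the Pol II ChIP and 2 inputs, the latter being DNA from the same kind of sonicated extract that met no antibody. All animals were grown at 20 °C on plates and crosslinked in 2% formaldehyde. According to the labels, every sample came from the strain OP54, with the genotype unc-119(ed3) III and the transgene wgIs54, which joins a rescuing unc-119(+) to egl-5 tagged with TY1, EGFP and 3xFLAG and was introduced by bombardment. The labels conflict on this, since the description under the same strain names EOR-1 as the tagged protein and the authors' sample table lists OP81, so the tagged factor is not settled here. ChIP used the mouse monoclonal antibody 8WG16, which binds the C-terminal repeats of the largest Pol II subunit, AMA-1, and not the tagged factor. All cell types of the animal, soma and germline, contributed to each library, so a region found in many cells and a region strongly occupied in a few cannot be told apart.

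Pol II transcribes all protein-coding genes and many small noncoding RNAs. Its largest subunit ends in a repeated heptapeptide that is phosphorylated as the enzyme leaves a promoter, and 8WG16 favours the form with little phosphorylation. Chromosome IV carries a pair of broad domains rich in piRNA genes, which are short Pol II transcription units that are active in the germline. The middle of a worm autosome is rich in genes, among them many in operons, whereas its arms hold more repeats. Regions are given by position, without gene names, because no gene annotation of WS220 was used here.

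Pol II ChIP replicate 1 held 3262273 uniquely mapped reads and replicate 2 held 4623128. The authors called regions in each replicate and in both replicates merged (the combined list), each time, by their sample table, against the same merged input, so overlap between lists is not independent of that shared control. Each region has a q-value from the authors, all below 0.01, which is used here to describe and rank regions within a list. Where q-values of different lists are set side by side, this is a description only. The lists come from libraries of unlike read number, so such a difference is not a measure of binding. Ranks recovered from these q-values begin at 263 (combined), 153 (replicate 1) and 72 (replicate 2) and not at 1, so 262, 152 and 71 stronger regions of the genome are not analysed here. Wherever the combined list shows no region, a very strong one may therefore lie among those not analysed. Replicate 1 covered more bases than replicate 2 from fewer reads, here as elsewhere in the genome.

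Pol II regions covered 1001 kb of the 11.3 Mb in the 3 spans, that is 8.88% of bases in the combined list. Replicate 1 covered 8.26% and replicate 2 covered 5.43% (mean 6.84% ± 2, SD, n = 2). The middle span was the densest, with 145 regions per Mb in the combined list, while replicate 1 gave 125 and replicate 2 gave 105. By the same measure the left end held 127, 98.2 and 96.2 regions per Mb in the same order of lists, and the right end held 116, 109 and 102. In regions per Mb the middle span was thus first in all 3 lists, while the order of the left and right ends differed between the combined list and the replicates. The right end was closed at the last listed base of any list, so any chromosome beyond that base would lower its density and covered share. Whether its order with the left end in the replicates would hold at a greater length was not tested.

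In covered bases the middle span reached 9.32% (combined list), 9.07% (replicate 1) and 5.97% (replicate 2). The left end reached 8.22%, 7.07% and 4.76%. It was lower than the middle span in every list, by a mean of 1.6 percentage points over the replicates (SD 0.557, n = 2). The right end reached 9.19% in the combined list and 8.42% in replicate 1, and only 3.55% in replicate 2, where it was the lowest of the 3 spans. A two-sided exact sign-flip permutation test over the 2 replicates gave p = 0.5 for each of these differences, the smallest p this test can give with 2 replicates, so it cannot show any of them to exceed the replicate error. Between the replicates the cover of a span itself varied with an SD of 1.64 points in the left end, 2.19 in the middle span and 3.45 in the right end.

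**Figure D1:**
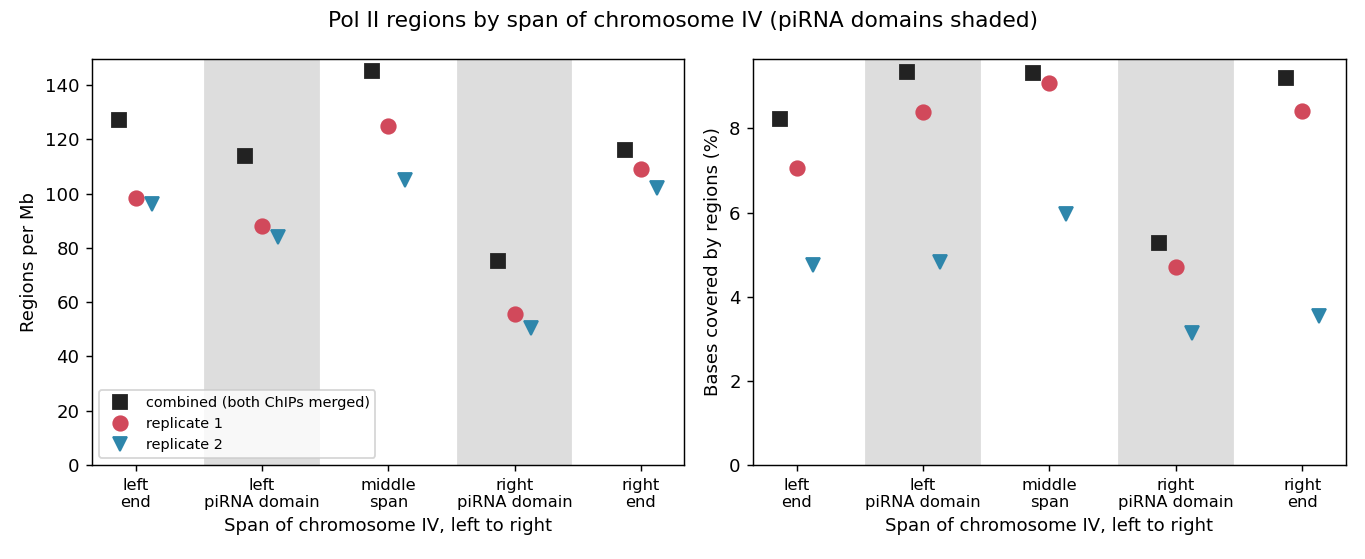
Regions per Mb (left) and percent of bases covered by regions (right) in the 5 spans of chromosome IV, with 1 point for each of the 3 lists and the piRNA domains shaded. The middle span holds the most regions per Mb in each list (145, 125 and 105), and the right piRNA domain the fewest (75.1, 55.7 and 50.5).

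The 5 strongest listed regions of the left end were all wider than 5 kb and all had partners in both replicates. Chromosome IV 4210780 to 4216541, 5762 bp wide, had q = 2.29e-272 in the combined list. Replicate 1 marked nearly the same interval, 4210835 to 4216538, with q = 3.82e-152, whereas replicate 2 split it into 3 regions, the strongest of them 4214125 to 4216395 with q = 1.14e-50. The region 291934 to 297456 had q = 1.47e-268, with q = 2.22e-181 in replicate 1 and 4.39e-51 in the stronger of 2 replicate 2 regions. The widest region of the left end, 1062145 to 1068779 with 6635 bp, had q = 1.75e-255. It was broken into 2 regions in replicate 1 (lowest q = 9.40e-117) and 3 in replicate 2 (lowest q = 3.12e-37). The region 827266 to 832687 had q = 3.28e-251 and was a single region in each replicate, with q = 3.08e-149 and q = 6.56e-86. The fifth, 1008412 to 1014116, had q = 2.76e-243. Replicate 1 covered all 5705 bp of it, with q = 2.43e-145, and replicate 2 covered 2063 bp of it in 3 regions, with a lowest q of 8.22e-55. Of the 5, 3 lay between 827266 and 1068779.

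The middle span held the second lowest q-value among the listed combined regions of the genome. This region, chromosome IV 7981110 to 7984669, had q = 2.67e-304 and was a single region in both replicates, 7980911 to 7984647 with q = 9.23e-220 and 7981704 to 7984481 with q = 1.40e-72. Next came 9672211 to 9678228, 6018 bp wide, with q = 4.86e-284. It was matched by 1 region in replicate 1 (q = 5.09e-188) and by 4 in replicate 2 (lowest q = 6.64e-40). The region 11520888 to 11526329 had q = 6.98e-275, with q = 1.97e-176 in replicate 1 and 2.96e-31 in the strongest of 3 replicate 2 regions. The widest of the span, 8584333 to 8592001 with 7669 bp and q = 1.08e-262, was the only one of these 5 to be split in both replicates, into 3 regions each. Its lowest q-values were 3.78e-63 in replicate 1, at 8588085 to 8591336, and 8.87e-58 in replicate 2, at 8584507 to 8586621. These stretches do not overlap, so the values come from different places, and each stretch had another partner. At the replicate 2 stretch, −log10 q was 57.1 in replicate 2 and 57 in its replicate 1 partner. At the replicate 1 stretch, it was 62.4 in replicate 1 and 46 in its replicate 2 partner. The narrowest of the 5, 10682353 to 10684752, had q = 1.55e-242 over 2400 bp. Replicate 2 covered 95% of it and replicate 1 covered 99.3%, with q = 2.95e-77 and q = 2.08e-143. The second widest region of the span, 13026669 to 13033359 with 6691 bp, was weaker, with q = 1.25e-123 in the combined list, q = 5.77e-59 in replicate 1 and 6 weak pieces in replicate 2 (lowest q = 1.64e-07).

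**Figure D2:**
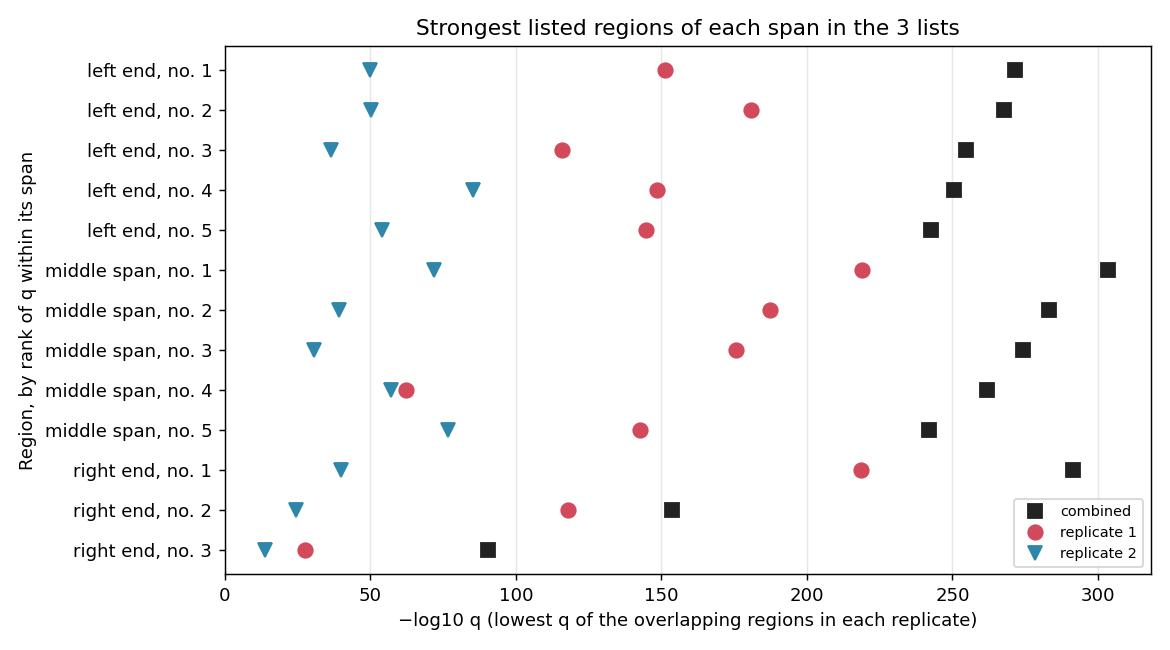
The −log10 q of the 5 strongest listed regions of the left end, the 5 of the middle span and the 3 of the right end, with 1 point per list (for a replicate, the lowest q among its regions that overlap the combined region). Replicate 1 lies to the right of replicate 2 for all 13. The pair of points is closest for number 4 of the middle span (q = 3.78e-63 and q = 8.87e-58). There the replicate regions behind the points do not overlap each other, and each has another partner in the opposite replicate.

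The right end spans 0.275 Mb, from 17200001 to the last listed base of the chromosome, 17475404, which belongs to a member. Its 32 regions had a median q of 2.08e-13, against 1.02e-09 in the middle span and 2.67e-08 in the left end. In the combined list, regions with q below 1e-50 made up 21.9% of the right end (7 of 32), 11.3% of the middle span (106 of 942) and 11% of the left end (63 of 573), beside 10.6% of the whole list. The replicates did not share this order. Replicate 1 had 2 of 30 such regions at the right end (6.67%), 9.45% in the middle span and 6.79% in the left end, and replicate 2 had 0 of 28, 4.55% and 3.46%. The strongest was 17259643 to 17264171, 4529 bp wide, with q = 5.38e-292. In replicate 1 a single region covered 99.9% of it with q = 2.18e-219, and in replicate 2 it fell into 4 regions that covered 35.6% of it, with a lowest q of 1.38e-40. The region 17332480 to 17335449, with q = 2.17e-154, was covered to 100% in replicate 1 (q = 1.00e-118) and to 24.5% in replicate 2 (q = 3.39e-25). The last region of the chromosome, 17473183 to 17475404, had q = 3.23e-91, with q = 2.05e-28 in the strongest of 3 replicate 1 regions and q = 1.42e-14 in the stronger of 2 replicate 2 regions. It closes a run of 6 regions from 17465833 onwards, of which every one has q below 1e-05.

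Replicate 2 called nearly as many regions at the right end as replicate 1, 28 against 30, but narrower ones. Their median width was 225 bp in replicate 2 and 388 bp in replicate 1, and the widest measured 1097 and 4545 bp. The ratio of covered bases, replicate 1 over replicate 2, was 2.38 there, 1.49 in the left end and 1.52 in the middle span. Within the 3 strongest combined regions replicate 1 covered 5913 bp more than replicate 2, of a difference of 13433 bp over the whole right end. All 30 replicate 1 regions and all 28 replicate 2 regions of the right end overlapped the combined list, so no replicate region there lacks a place in it. Over the whole lists 88.6% of replicate 1 regions and 86.1% of replicate 2 regions did so. With 32 regions, the right end allows only wide intervals on any share.

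Most regions were short in all 3 spans. Combined regions had a median width of 328 bp in the left end (quartiles 149 and 697), 348 bp in the middle span (175 and 700) and 354 bp in the right end (200 and 928). Those of 2500 bp or more numbered 80 in all, and they held 33.5%, 27.6% and 29.6% of the covered bases of the 3 spans. At the other extreme, 107 of the 1547 members (6.92%) were narrower than a 36-base read, and the narrowest was 1 bp wide. Width and strength went together. Across the 1547 members Spearman's rho between width and −log10 q was 0.842, and it was 0.841 in replicate 1 and 0.836 in replicate 2. These are correlations across regions of the same libraries, in which a wide region also collects more reads, and they are given as a description.

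Cover varied along each span. Among the 9 windows of 500 kb in the left end, the first, 1 to 500000, was covered most in the combined list (12.8%, with 11.4% in replicate 1 and 6.02% in replicate 2). Its neighbour, 500001 to 1000000, was covered least (4.79%, 5.35% and 3.06%). The 13 windows of the middle span ran from 6.62% at 12500001 to 13000000 (4.07% in replicate 1 and 3.21% in replicate 2, the lowest window of the span in each) to 12.7% at 8500001 to 9000000 (12.2% and 7.29%). Replicate 1 was above replicate 2 in 21 of the 22 windows.

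The exception, 2500001 to 3000000, had 5.14% in replicate 1 and 6.44% in replicate 2. It holds the 2 strongest left-end regions of replicate 2 that the combined list lacks, described below, and without them replicate 2 had 3.95%. Across the 13 middle windows the replicates ranked alike (Spearman's rho = 0.857), and across the 9 left-end windows rho was 0.233. It was 0.762 over the 8 windows other than the exception. That window was left out because of its replicate values and no middle window was, so 0.762 is not comparable to 0.857. These coefficients describe windows of 1 chromosome in 2 libraries that share a control. The combined list was below replicate 1 in 6 of the 22 windows and below replicate 2 in 2. The largest shortfall was at 10500001 to 11000000, where the combined list covered 6.99%, replicate 1 covered 10.3% and replicate 2 covered 7.4%. In that window 3 replicate 1 regions and 5 replicate 2 regions with q below 1e-20 had no place in the combined list, and with their bases added its cover was 11.3%.

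**Figure D3:**
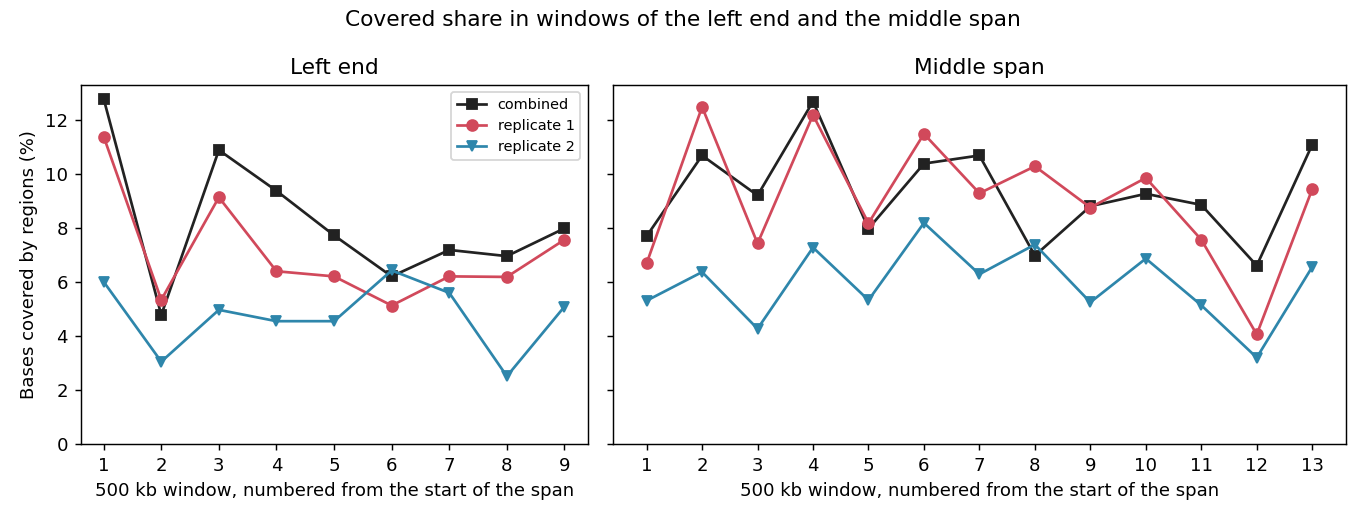
Percent of bases covered by regions in consecutive 500 kb windows of the left end (9 windows) and the middle span (13 windows), numbered from the start of each span, with 1 line for each list. The replicate 2 line crosses the replicate 1 line only at window 6 of the left end (5.14% and 6.44%), and the combined line falls below both replicates at window 8 of the middle span.

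The 2 piRNA domains of the chromosome, from 4.5 to 7 Mb and from 13.5 to 17.2 Mb, served as the nearest comparison. Together they held 91 regions per Mb and were covered to 6.92% in the combined list, against 137 per Mb and 8.88% in the 3 spans. The spans exceeded the domains by 2.07 points in replicate 1 and by 1.61 in replicate 2 (mean 1.84 ± 0.327, SD, n = 2, exact sign-flip permutation p = 0.5, the smallest possible). The right domain was below all 3 spans in every list, at 5.27% (combined), 4.71% (replicate 1) and 3.14% (replicate 2). The left domain, at 9.35%, 8.38% and 4.83%, was above the left end in each list, by as little as 4.83% against 4.76% in replicate 2, and held fewer regions per Mb (114 against 127 in the combined list). Against the middle span its order depended on the list. The middle span minus the left domain gave -0.0317 points in the combined list, whereas replicate 1 gave 0.692 and replicate 2 gave 1.14. The left domain of the combined list includes 1 region, of 30469 bp, that comment lines mark as altered by the conversion to WS220. Without it the left domain was covered to 8.13%, which is 1.19 points below the middle span and also below the 8.22% of the left end, so both orders turned in the combined list. For setting, all of chromosome IV was covered to 8.18% in the combined list, and the other chromosomes to between 5.04% and 7.93%. The replicates did not share this order. In replicate 1 chromosomes I (8.25%) and III (7.98%) were above chromosome IV (7.52%). Replicate 2 also had III (5.61%) and I (5.19%) above IV (4.86%).

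Of the 1547 members, 680 overlapped a region in both replicates by at least 1 bp (44%, Wilson 95% interval 41.5 to 46.4), close to the 44.9% of the whole combined list. Another 432 overlapped replicate 1 alone (27.9%, interval 25.7 to 30.2, against 26.8% of the list) and 167 overlapped replicate 2 alone (10.8%, interval 9.34 to 12.4, against 12.2%). The remaining 268 overlapped neither (17.3%, interval 15.5 to 19.3, against 16.1%). All of these shares lay near those of the list as a whole. By span, both replicates had a partner for 43.6% of the left end (interval 39.6 to 47.7), 43.8% of the middle span (interval 40.7 to 47) and 53.1% of the right end (17 of 32, interval 36.4 to 69.1). Wilson intervals cover counting error only.

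The regions seen in both replicates made up most of the covered bases. Their width had a median of 717 bp and their q-value one of 1.48e-24. They held 79% of the bases that members covered, near the 77.2% of the whole combined list. Members without a partner in either were short and weak (medians 100 bp and q = 4.63e-04) and held 3.69% of the bases, beside 4.46%. In bases, replicate 1 covered 77.5% of the left-end members, 79.6% of the middle-span members and 85.9% of the right-end members. Replicate 2 covered 47.5%, 46.7% and 37.7% in the same order. For all regions of the combined list the covered bases were 79.4% in replicate 1 and 47.1% in replicate 2. Some combined members were met by several regions of a replicate. Among combined members with a partner, 14.5% met 2 or more regions in replicate 2 (123 of 847) and 7.64% did so in replicate 1 (85 of 1112), and at the right end 6 of 19 did so in replicate 2. Over the whole combined list these shares were 13.4% in replicate 2 and 4.72% in replicate 1.

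Between the replicates, 740 of the 1287 replicate 1 regions in the spans overlapped replicate 2 (57.5%, Wilson 95% interval 54.8 to 60.2, against 57.8% of its whole list). In the other direction 870 of 1142 replicate 2 regions overlapped replicate 1 (76.2%, interval 73.6 to 78.6, against 72.4%). The share with a partner rose with strength over all classes of q in replicate 1, and in replicate 2 down to q of 1e-50. Wider regions were also stronger and overlap needs only 1 bp, so what width adds to these shares was not tested. In replicate 1, a partner was present for 33.2% of regions with q between 1e-05 and 0.01, 61.6% between 1e-20 and 1e-05, 93.5% between 1e-50 and 1e-20, and 108 of 109 regions below 1e-50. The whole list gave 33.3%, 63.6%, 95% and 98.7%. In replicate 2 the first 3 of these classes gave 60.7%, 92.7% and 97.4%, beside 56.4%, 89% and 94.9% of the whole list. Below 1e-50, 33 of 46 had a partner (71.7%, interval 57.5 to 82.7), beside 71.1% of the whole list, so the strongest class of replicate 2 stood at the share of the list. In the weakest class of replicate 1, 38.9% of left-end regions (interval 32.5 to 45.8) and 29.3% of middle-span regions (interval 24.4 to 34.8) had a partner, and this difference was not tested.

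**Figure D4:**
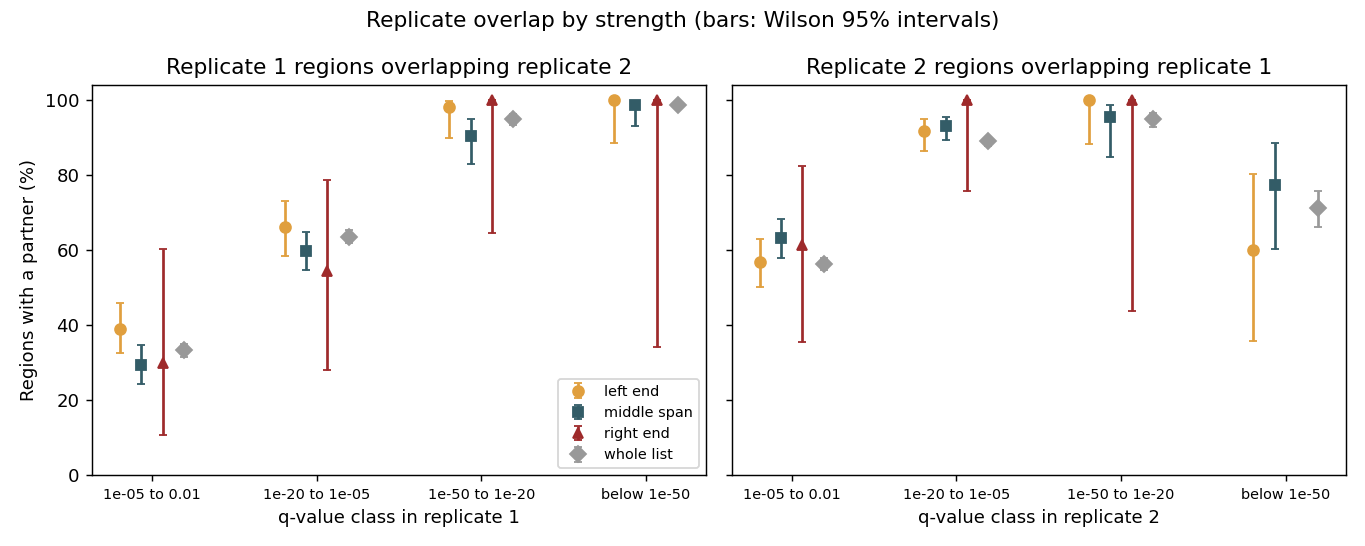
Percent of replicate 1 regions that overlap replicate 2 (left) and the reverse (right) in 4 classes of q-value, for each span and for the whole list, with Wilson 95% intervals as bars. Shares climb with strength in replicate 1 up to 108 of 109 members below 1e-50, whereas in replicate 2 only 33 of 46 below 1e-50 have a partner, and the right end has no region in that class.

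Where both replicates had a region, 716 pairs were each other's largest overlap, 255 in the left end, 443 in the middle span and 18 in the right end. Replicate 1 gave the lower q-value in 558 of the 716 (77.9%) and the wider region in 541 (75.6%). Over the pairs of the whole lists these shares were 74.7% and 78.6%, so both were near those of the genome. Replicate 1 had a median −log10 q of 12 and a median width of 607 bp over these pairs, and replicate 2 had 6.7 and 430 bp. Replicate 1 had the lower q in 81.7% of middle-span pairs, 71.4% of left-end pairs and 14 of the 18 right-end pairs. Spearman's rho of −log10 q over the pairs was 0.654 in the left end, 0.665 in the middle span and 0.606 in the right end, beside 0.695 over the 4167 pairs of the whole lists. The pairs share both libraries and the input control, and the values are given as descriptions.

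**Figure D5:**
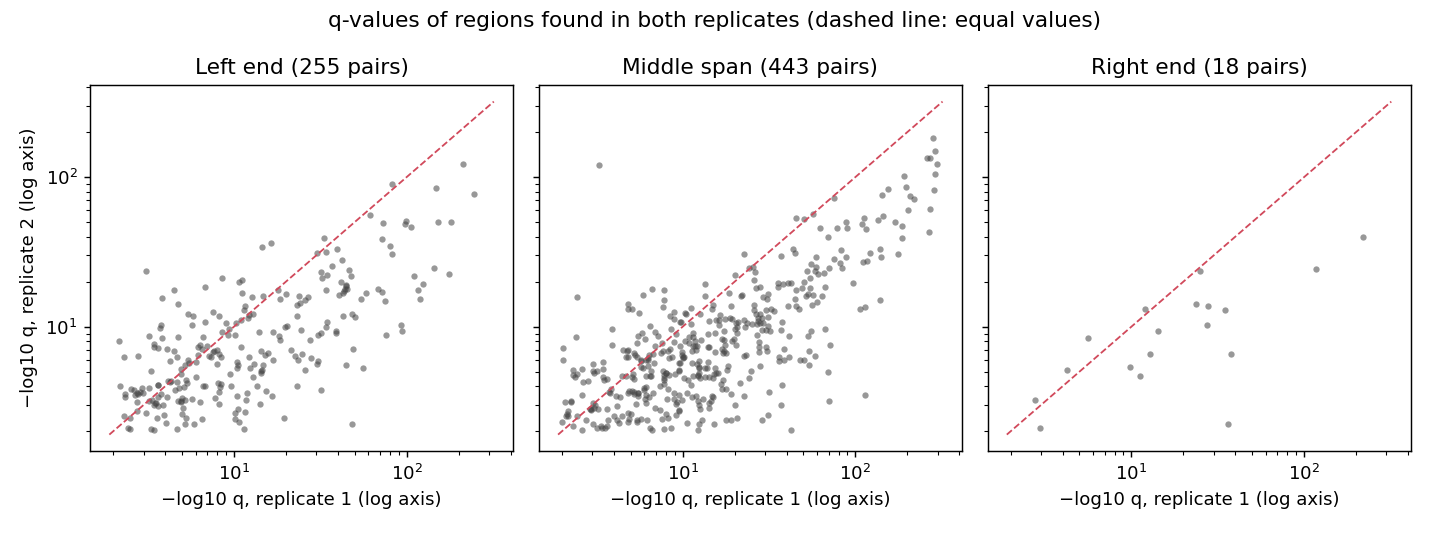
The −log10 q in replicate 2 against that in replicate 1 for pairs of best overlapping regions in the 3 spans, on log axes, with 1 point per pair and a dashed line at equal values. Most points lie below the line (558 of 716 have the lower q in replicate 1, 77.9% beside 74.7% over the whole lists), and 1 middle-span point stands far above it.

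Some of the strongest replicate regions of these spans were missing from the combined list. Of replicate 1 regions with q below 1e-50, 15 of 109 overlapped no combined region (13.8%, interval 8.52 to 21.5, against 17.4% of that class in the whole list). Of replicate 2 regions, 27 of 46 did not (58.7%, interval 44.3 to 71.7, against 57.7%). A partner in the other replicate was present for 14 of the 15 and for 14 of the 27. Below 1e-100, none of the 6 replicate 2 regions of the left end and none of the 11 of the middle span had a place in the combined list, and over the whole replicate 2 list 84.9% of that class had none (135 of 159). The Wilson intervals of these shares, 61 to 100 in the left end and 74.1 to 100 in the middle span, include the share of the whole list. The missing regions with q below 1e-50 had median widths of 4887 bp (replicate 1) and 3368 bp (replicate 2). Width and strength went together in all lists, so this width is not shown to be a trait of missing regions. Missing regions of any q had medians of 44 bp (replicate 1) and 92 bp (replicate 2) in the left end. In the middle span these were 93 and 336 bp.

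In the middle span the strongest replicate 1 regions missing from the combined list were seen in both replicates. Replicate 1 marked 7505678 to 7509368 with q = 8.13e-299 and replicate 2 marked 7506063 to 7508899 with q = 1.80e-123. Replicate 1 also marked 7907982 to 7913393 with q = 9.05e-291, beside 7908457 to 7911639 in replicate 2 with q = 3.70e-106. In the left end, replicate 1 marked 3231283 to 3234990 with q = 3.12e-245, where replicate 2 had a lowest q of 2.17e-78, and 653122 to 659217 with q = 9.98e-214, where replicate 2 had q = 3.81e-123. All 4 intervals lack a combined region although both replicates show one.

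Of replicate 2 regions outside the combined list with q below 1e-100, 1 of 6 in the left end had a partner in replicate 1. In the middle span 8 of 11 had one. The 2 strongest of each span had none. They were 2599374 to 2604327 (q = 2.58e-253) and 2768055 to 2775528 (q = 1.13e-187) in the left end, and 11592927 to 11595236 (q = 3.07e-233) and 12210640 to 12218498 (q = 6.12e-221) in the middle span. Since replicate 1 also lacks its 152 strongest regions, a missing partner at these places is no measure of a difference between the replicates. With replicate regions of q below 1e-20 added to the combined list, cover became 8.96% in the left end, 10.9% in the middle span and 9.19% in the right end, where nothing was added.

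Regions were bunched. Of the gaps between neighbouring combined regions, 53.5% were shorter than 2000 bp in the left end, 54.1% in the middle span and 61.3% in the right end, while the median gaps were 1659, 1520 and 877 bp. No gap was shorter than 200 bp. Joined across gaps under 2000 bp, the 573 left-end regions formed 267 groups and the 942 middle-span regions 433, and 75.6% and 77.1% of regions lay in a group of 2 or more. The groups with the most regions were chosen after their values were seen. In the middle span 17 regions lay between 12813245 and 12836432 (23.2 kb, 56.3% covered, lowest q = 4.35e-58), with 14 replicate 1 and 10 replicate 2 regions in the same interval. In the left end 13 lay between 4017915 and 4030947 (13 kb, 45.2% covered, lowest q = 2.34e-71), with 11 and 8. Whether such a group is 1 transcribed unit or several was not examined.

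The 3 longest stretches of the left end without a combined region were 3896020 to 4014082 (118 kb), 3401189 to 3505796 (105 kb) and 4106595 to 4208326 (102 kb). The first and the third of these had no replicate region either, and the second held 1 weak replicate 2 region (q = 0.00385). The 3 longest of the middle span were 12906714 to 13013306 (107 kb), 13109625 to 13196246 (86.6 kb) and 9536513 to 9608986 (72.5 kb), of which the first held 1 replicate 2 region (q = 0.00791) and the others none from either replicate. The longest in the right end was 17335450 to 17380447, 45 kb, empty in both replicates. Gaps of more than 50 kb numbered 11 in the left end and 8 in the middle span. How much of these stretches 36-base reads can reach uniquely was not examined, so an empty stretch is not shown to lack Pol II.

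No member crossed a border of its span. Just inside 4.5 Mb lay a 5 bp region, 4487066 to 4487070 (q = 2.82e-05), and just outside lay 4511080 to 4512535 (q = 1.88e-59). At 7 Mb the last region outside was 6959441 to 6959785 (q = 1.06e-05) and the first member was 7011827 to 7013073 (q = 1.72e-53). At 13.5 Mb the last member was 13483361 to 13484485 (q = 2.70e-13), and the region 13500602 to 13500704 (q = 1.47e-04) fell outside by 0.653 kb. At 17.2 Mb the region 17189811 to 17189837 (q = 1.49e-08) fell outside, and the first member was 17207854 to 17207883 (q = 7.77e-08), the only right-end region with no partner in either replicate.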

How the data were processed

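Regions were called with PeakSeq and their coordinates are in WormBase WS220, per the file headers. The values are q-values as deposited by the authors. The authors' deposited sample table gives the read counts of each ChIP run, and those of the inputs were not used here. The deposited investigation file names Eland for the alignment, with no version. Comment lines record a coordinate conversion that changed the structure of 10 combined regions, 0 of them members.

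Titles put 2 samples in the Pol II ChIP group and 2 in the input group. The deposited files name both biological and technical replicates without assigning them, so the spread between replicates may be technical. Covered share is the bases of the regions with a midpoint in a span over its length, with the right end closed at the last listed base, 17475404. Overlap needs 1 bp. First ranks came from ties of q times rank between neighbouring lines (tolerance 1e-11, 2000 starting ranks tried). Regions were handled in pandas 2.3.3 with numpy 2.4.6 under Python 3.11.15, intervals came from scipy 1.17.1, and the code was tested on simulated lists. Replicate differences were tested by exact sign-flip permutation, and no region was tested on its own.

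The spans, lists and tests were chosen with earlier results of these data known. Regions named are those with the 5 lowest q (right end 3) and the 3 widest (right end 1) per span, the 2 strongest per replicate outside the combined list, those next to the 4 borders, and the highest and lowest windows and longest gaps. The windows at 2500001 and 10500001, the groups of regions and the pair under other observations were chosen after their values were seen. Alternatives were other lists, merging, stricter overlap, width and q limits, clipping and added regions.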

Additional observations from a re-analysis of the deposited data

How the results depend on the processing

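With each replicate's list in place of the combined one, regions per Mb ranged from 96.2 to 98.2 in the left end, 105 to 125 in the middle span and 102 to 109 in the right end, and covered shares from 4.76% to 7.07%, 5.97% to 9.07% and 3.55% to 8.42%. Merging regions less than 2000 bp apart gave 59.3, 66.6 and 47.2 per Mb by construction, and leaving out regions narrower than a read gave 118 in the left end. With overlap of 50% of both regions, 17.3%, 19.9% and 18.8% of combined regions matched both replicates. With q below 1e-05, 62% of the left end and 59.2% of the middle span did. The middle span exceeded the left piRNA domain, against -0.0317 points in the combined list, by 0.692 to 1.14 points in single replicates, by 0.384 with strong replicate regions added and by 1.19 without the structure-changed region. The left end minus that domain, -1.14 points in the combined list, became 0.083 without the structure-changed region. These comparisons were added after seeing the data. The other 31 alternative values kept their direction or stayed within their spread, and the cause of the shifts was not tested beyond the settings' own construction. No paired analysis was possible because only the Pol II ChIP samples come with regions, so no second group shares their replicate numbers. What read depth limits was not tested by thinning reads.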

Other observations

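One pair in the middle span stood apart in the plot of q-values and was chosen for that. Replicate 2 had a region of 5944 bp at 7390004 to 7395947 with q = 5.60e-122, and its partner in replicate 1 was 118 bp at 7390138 to 7390255 with q = 5.14e-04. The combined list held no region there.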
